A study of Homo sapiens with 2 samples.

Results

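The genes described here encode the enzymes of cholesterol and fatty acid synthesis, the sterol regulatory element-binding proteins (SREBPs) with the proteins that control them, and carriers of sterols. They are 34 genes listed by name: 18 sterol synthesis enzymes, 8 fatty acid enzymes, 5 regulators and 3 transport genes. Of the 34, 31 had at least 1 probe set that the platform's annotation assigns to that gene alone, 70 probe sets in all among the 54675 of the array. The probe sets of CYP51A1 and FADS1 carry a further gene in the annotation, and these genes, like FDFT1, were not analysed here. Each gene is given by its strongest probe set (highest average of the pair of arrays) and was called measured if that average reached 6 in log2 units. 29 of the 34 were measured, among 8997 measured genes of 19775 named, and MVD and TM7SF2 lay under the minimum.

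The data are 2 Affymetrix U133 Plus 2.0 arrays of RNA from MDA-MB-231, an established human cell line of triple-negative breast cancer. Both cultures were transfected for 48 h, 1 with siRNA against KMO (siKMO), the gene of the kynurenine pathway enzyme kynurenine 3-monooxygenase, and 1 with a control siRNA (siCon). Medium, transfection reagent and RNA extraction were shared, and the array names carry shLUC and shK421, which read as hairpin names, so the construct was not settled. With 1 array for each condition none of the differences below could be checked against replicates or tested, and they hold for these 2 cultures alone. Levels are log2 values after robust multi-array averaging (RMA), differences are siKMO minus siCon, and a difference of 1 is 2-fold.

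Cholesterol is built from acetyl-CoA through mevalonate and isoprenoid units to squalene, which is closed into a ring and trimmed to the final sterol. Fatty acids are built from the same acetyl-CoA, then lengthened and desaturated. SREBP-2 mainly drives the sterol genes and SREBP-1 mainly the fatty acid genes: both are escorted by SCAP from the endoplasmic reticulum for cleavage when sterols are low, and INSIG proteins hold them back when sterols are high. The liver X receptors (LXRs) sense oxidised sterols and switch on sterol export and the SREBP-1 gene.

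The knockdown target gave no check of the labels. The 3 probe sets of KMO stood between 2.11 and 2.95 in siCon and between 2.35 and 2.92 in siKMO, within the range of 8 genes of unrelated tissues such as liver and lens (2.04 to 5.11 and 1.95 to 4.95). Of the receptors whose lack defines triple-negative cancer, ESR1 and PGR lay under the minimum on both arrays, and ERBB2 stood at 7.44 and 7.37. All 6 mesenchymal-like markers of the line, such as VIM and CD44, were measured, at medians of 11.56 and 11.55. Of 7 markers of blood, endothelial and stromal cells, 6 lay under the minimum, and COL1A1 stood at 7.08 in siCon and 6.90 in siKMO.

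Sterol synthesis enzymes were slightly higher and fatty acid enzymes slightly lower in siKMO, while SREBF1, SREBF2, INSIG2 and NPC1 were lower. The differences were small: of the 29 measured genes, 1 (NSDHL) was at least 1.5-fold higher, 0 were at least 1.5-fold lower and 0 reached 2-fold in either direction. Over the whole array 5.19% of measured genes passed 1.5-fold upward and 5.41% downward, and 0.856% and 1.39% passed 2-fold, so these lipid genes did not pass either fold more often than the background. Their median difference was 0.02, beside 0.04 over all measured genes, and it was -0.02 with differences centred on genes of a like level. Of the 29, 15 were higher and 14 lower, beside 54.8% and 44.1% of all measured genes. In RNA of a whole culture, a lower level in every cell and in some cells cannot be told apart. The medians of the groups lay apart, at 0.17 for the sterol enzymes, -0.12 for the fatty acid enzymes, -0.31 for the regulators and -0.21 for the transport genes.

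**Figure D1:**
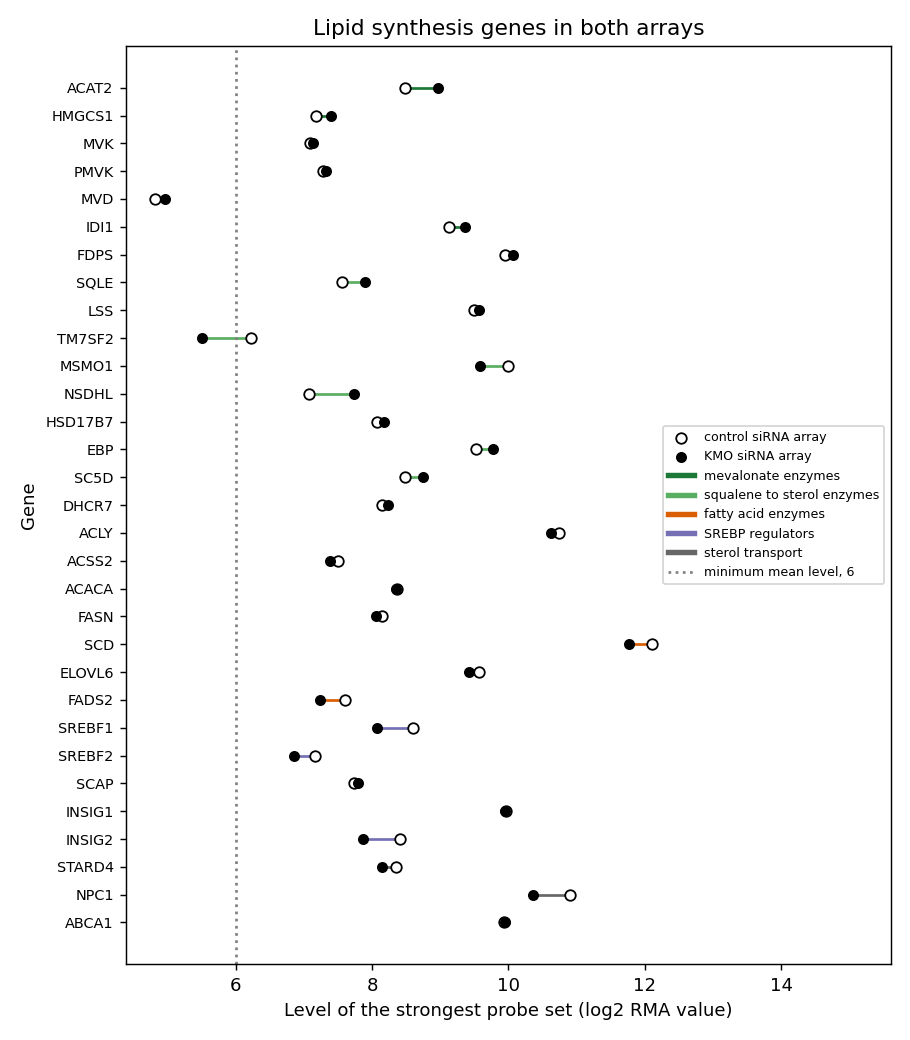
Level of the strongest probe set of 31 genes (log2 RMA value, x axis) in the control siRNA array (open circles) and the KMO siRNA array (filled circles), in pathway order, with the connecting line coloured by role. The filled circle lies to the right for most sterol enzymes (ACAT2, 8.48 and 8.97) and to the left for the fatty acid enzymes (SCD, 12.10 and 11.77). Only differences within a gene can be read, since levels of different probe sets are not comparable.

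The measured mevalonate enzymes were higher with their strongest probe sets, but the sign for IDI1, MVK and PMVK was not settled. All 6 measured members were higher in siKMO, beside 54.8% of all measured genes, with a median of 0.17 and a range of 0.04 to 0.50. ACAT2, a cytosolic thiolase that joins acetyl-CoA units at the start of the route, stood at 8.48 in siCon and 8.97 in siKMO, a 1.41-fold difference that 8.02% of measured genes matched or exceeded in that direction. HMGCS1, the synthase that makes HMG-CoA, stood at 7.18 and 7.40. IDI1, which isomerises the isoprenoid unit, stood at 9.12 and 9.37, but its 3 measured probe sets ran from -0.16 to 0.25, so its direction was not settled. Averaged over those 3 it was at 0.10, and over all 4 of its probe sets at 0.03. FDPS, the farnesyl diphosphate synthase, stood at 9.95 and 10.07. The kinases MVK (7.10 and 7.13) and PMVK (7.28 and 7.32) each differed by 0.04, the median over all genes, and with differences centred on genes of a like level they were at -0.0058 and -0.0008. MVD, the decarboxylase of the route, was under the minimum at 4.82 and 4.96.

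Of the enzymes from squalene to cholesterol, 7 of 8 measured were higher, beside 54.8% of all measured genes. Their median was 0.17, beside 0.04 over all measured genes, with a range of -0.40 to 0.67. NSDHL, a dehydrogenase that helps remove the methyl groups at carbon C-4 of the ring, stood at 7.07 in siCon and 7.74 in siKMO. Its 1.59-fold difference was the largest of the 29 genes, its other probe set differed by 0.70, and 3.53% of measured genes were as high or higher. SQLE, the oxygenase that prepares squalene for ring closure, stood at 7.55 and 7.90 with its strongest probe set, and its other measured probe set differed by 0.39. SC5D, a desaturase of the last steps, stood at 8.48 and 8.75, and EBP, the isomerase before it, at 9.52 and 9.77 (0.25 and 0.32 with its measured probe sets). Averaging in the probe sets under the minimum put SC5D at 0.13 and EBP at 0.14. The cyclase LSS (9.50 and 9.56), the reductase HSD17B7 (8.08 and 8.17) and DHCR7 (8.14 and 8.23), a reductase of the last steps, differed by less than 0.10 with their strongest probe sets, and the other measured probe set of DHCR7 differed by 0.14. HSD17B7 has near-identical pseudogene copies, so its value is uncertain.

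MSMO1 went the other way. This oxidase acts on the same C-4 methyl groups just before NSDHL, and it stood at 9.99 in siCon and 9.59 in siKMO, a difference of -0.40 from its single probe set that 10.0% of measured genes matched or exceeded downward. TM7SF2, a reductase of the sterol ring at C-14, stood at 6.22 and 5.50. Its average was under the minimum, so it was not counted as measured. With its siKMO level taken as 6 its difference was -0.22. Neighbouring steps of the route differed in opposite directions in this pair of arrays.

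**Figure D2:**
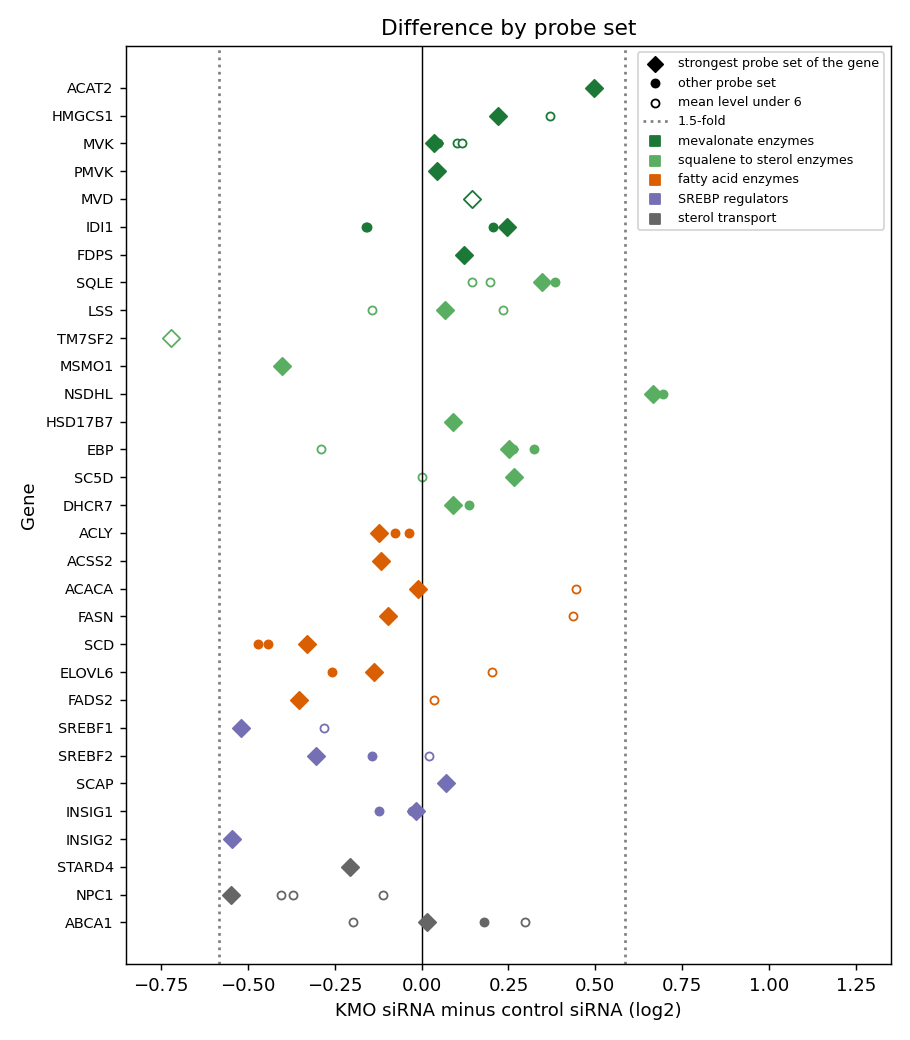
Difference between arrays (KMO siRNA minus control siRNA, log2, x axis) for all 70 probe sets of 31 genes, coloured by role; diamonds are the strongest probe set of a gene, circles the others, and open symbols have a mean level under 6. Filled symbols of the sterol enzymes lie right of 0 except MSMO1 and 1 probe set of IDI1, those of the fatty acid enzymes lie left of it, and NSDHL alone passes the dotted 1.5-fold line with a mean of at least 6.

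All 7 measured fatty acid enzymes were lower in siKMO, beside 44.1% of all measured genes, with a range of -0.35 to -0.01. SCD, the desaturase that makes monounsaturated fatty acids, stood at 12.10 in siCon and 11.77 in siKMO, and its 4 probe sets differed by -0.47 to -0.33. FADS2, the first desaturase of polyunsaturated fatty acids, stood at 7.60 and 7.24, a difference of -0.35 that 12.1% of measured genes matched or exceeded downward. It was at -0.16 when averaged with its other probe set, which lay under the minimum. ELOVL6, which lengthens palmitate, stood at 9.56 and 9.43 and differed by -0.26 with its other measured probe set (-0.06 when every probe set was averaged). ACLY, which makes cytosolic acetyl-CoA from citrate, stood at 10.74 and 10.62, with -0.12 to -0.04 over 3 probe sets, and ACSS2, which makes it from acetate, at 7.50 and 7.38. With the strongest probe sets, ACACA and FASN differed least: ACACA, acetyl-CoA carboxylase, stood at 8.36 and 8.35, and FASN, fatty acid synthase, at 8.15 and 8.05. Both have a second, weaker probe set under the minimum that was higher by 0.44, so when every probe set was averaged ACACA was at 0.22 and FASN at 0.17, 5 of the 7 enzymes were lower, and the group's median was -0.08. The median was -0.07 over the 2 enzymes left when _x_at and _s_at probe sets were omitted.

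Sterol and fatty acid enzymes were then set side by side. The median of the 14 measured sterol enzymes exceeded that of the 7 fatty acid enzymes by 0.29, a ratio of 1.23-fold. All measured sterol enzymes except MSMO1 lay above the highest fatty acid enzyme (ACACA at -0.01), and MSMO1 lay below the lowest (FADS2 at -0.35). Under the alternatives tried the gap between the medians ran from 0.20 to 0.30. With differences centred on genes of a like level, 11 of the 14 sterol enzymes and 0 of the 7 fatty acid enzymes were higher. The share of all measured genes that were higher after centring is not given, and the 54.8% above is for uncentred differences. Genes do not stand in for replicate cultures, and the difference between the groups was not tested.

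**Figure D3:**
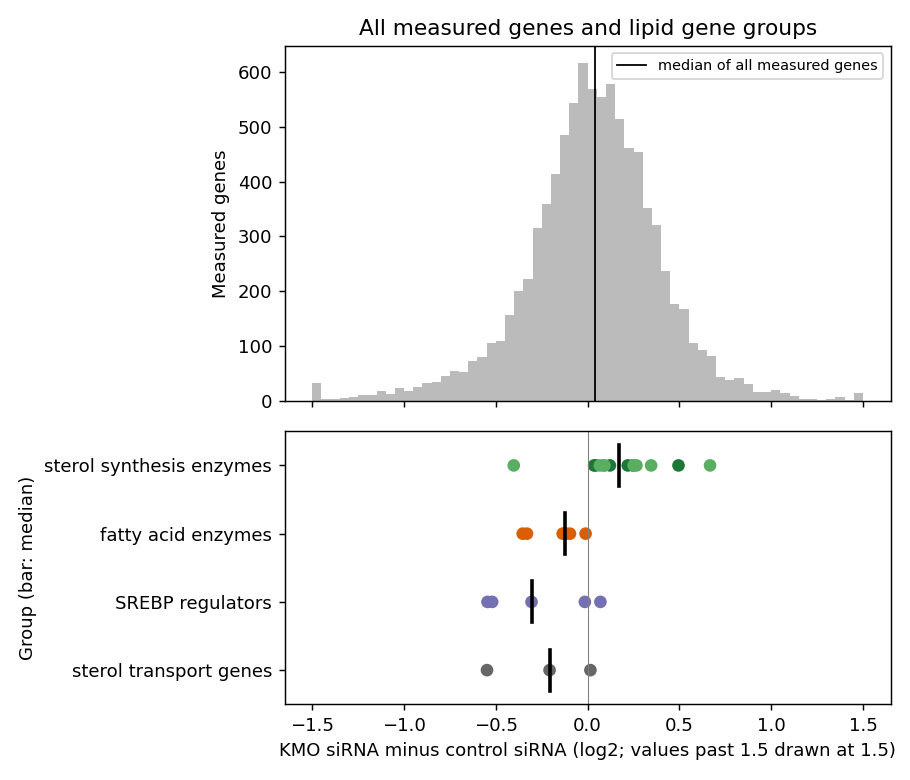
Top: number of measured genes by difference (KMO siRNA minus control siRNA, log2, bins of 0.05, values past 1.5 in the outermost bins), with a line at the median of 0.04. Bottom: the measured genes of each lipid group as points, with a bar at the group's median, at 0.17 for the sterol enzymes and -0.12 for the fatty acid enzymes. Most points lie inside the bulk of all measured genes, whose central 80% ran from -0.40 to 0.45.

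The regulators were lower or level. SREBF1, which encodes SREBP-1, stood at 8.59 in siCon and 8.07 in siKMO, a 1.43-fold lower level, and its other probe set lay under the minimum. SREBF2, which encodes SREBP-2, stood at 7.16 and 6.86 (-0.31), with -0.14 for its other measured probe set, and it was also at -0.14 when every probe set was averaged, 1 of them under the minimum. INSIG2 stood at 8.41 and 7.87, a 1.46-fold lower level from a single probe set, and it passed 1.5-fold with centred differences (-0.60). INSIG1, the form whose gene is itself an SREBP target, stood at 9.96 and 9.94, with -0.12 to -0.01 over 3 probe sets. The escort gene SCAP stood at 7.73 and 7.80. The median of the 5 regulators was -0.14 when every probe set was averaged.

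Among the transport genes, NPC1 differed most. NPC1, which exports cholesterol from lysosomes, stood at 10.91 in siCon and 10.36 in siKMO, a 1.46-fold lower level that 6.02% of measured genes matched or exceeded downward. Its other 3 probe sets, with differences of -0.41, -0.37 and -0.11, lay under the minimum and give no further measurement. STARD4, a soluble sterol carrier, stood at 8.36 and 8.15. ABCA1, the exporter that LXRs switch on, stood at 9.93 and 9.95, with 0.18 for its other measured probe set and -0.02 with centred differences. The median of the 3 was -0.21. When every probe set was averaged it was -0.07 over the 2 genes then measured, STARD4 (-0.21) and ABCA1 (0.07). NPC1 was not among them, since its average level was then under the minimum.

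Probe sets of the same gene give the only check of measurement scatter here, and they check the array and not the cultures. Of 11 genes with 2 or more measured probe sets, 10 had all of them in the same direction, the exception being IDI1, beside 72.5% of 3777 such genes on the whole array. With weak probe sets included, 10 of 20 genes had all in the same direction. The share over the whole array is not given for that setting, and the 72.5% is for measured probe sets only. The differences of a gene's 2 strongest probe sets lay a median of 0.10 apart over all genes, and 0.345 apart at the 90th percentile. The differences of LSS, HSD17B7, DHCR7, FASN, ACACA, INSIG1, SCAP, ABCA1, MVK and PMVK were smaller than that median gap. Those of NSDHL, ACAT2, MSMO1, FADS2, SREBF1, INSIG2, NPC1 and SQLE exceeded the 90th percentile, FADS2 and SQLE by a narrow margin.

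The promoters of these genes were searched for shared motifs, because SREBPs bind together with CCAAT- and GC-box factors. RefSeq promoters of GRCh38.p14 (250 bases before to 50 after each start) were given for 30 of the 34 genes, as 41 promoters. The stretches of 240 bases before the start are shown for NSDHL and MSMO1, which differed in opposite directions, for SCD, and for both SREBP genes. They lie at chrX:152830823-152831062 (NSDHL, plus strand), chr4:165327429-165327668 (MSMO1, plus strand), chr10:100346993-100347232 (SCD, plus strand), chr17:17836987-17837226 (SREBF1, minus strand) and chr22:41832865-41833104 (SREBF2, plus strand). Each is written 5′ to 3′, with capitals for CCAAT boxes (ATTGG on either strand), E-boxes (CACGTG) and sterol regulatory elements (TCACNCNAC on either strand). The 1 promoter given for SREBF1 has none of these 3 motifs in the stretch shown, and no other start of that gene was searched.
NSDHL: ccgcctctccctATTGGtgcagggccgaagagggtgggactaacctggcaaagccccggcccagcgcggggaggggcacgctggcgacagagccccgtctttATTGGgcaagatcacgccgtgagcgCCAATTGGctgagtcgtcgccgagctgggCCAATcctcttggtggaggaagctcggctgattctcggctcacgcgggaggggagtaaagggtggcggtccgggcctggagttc
MSMO1: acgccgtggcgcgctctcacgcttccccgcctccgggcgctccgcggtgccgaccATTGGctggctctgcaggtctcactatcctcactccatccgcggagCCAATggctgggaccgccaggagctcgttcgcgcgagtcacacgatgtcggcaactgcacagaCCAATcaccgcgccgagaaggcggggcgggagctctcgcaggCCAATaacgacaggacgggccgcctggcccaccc
SCD: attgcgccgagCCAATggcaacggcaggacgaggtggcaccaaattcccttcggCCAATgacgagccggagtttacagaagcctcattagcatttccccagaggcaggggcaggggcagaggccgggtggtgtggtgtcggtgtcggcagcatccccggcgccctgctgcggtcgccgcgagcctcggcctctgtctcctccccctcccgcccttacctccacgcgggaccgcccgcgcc
SREBF1: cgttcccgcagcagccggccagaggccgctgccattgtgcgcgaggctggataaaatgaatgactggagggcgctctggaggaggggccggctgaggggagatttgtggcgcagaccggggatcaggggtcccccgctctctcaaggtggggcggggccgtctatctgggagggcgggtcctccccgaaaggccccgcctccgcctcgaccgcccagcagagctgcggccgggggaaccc
SREBF2: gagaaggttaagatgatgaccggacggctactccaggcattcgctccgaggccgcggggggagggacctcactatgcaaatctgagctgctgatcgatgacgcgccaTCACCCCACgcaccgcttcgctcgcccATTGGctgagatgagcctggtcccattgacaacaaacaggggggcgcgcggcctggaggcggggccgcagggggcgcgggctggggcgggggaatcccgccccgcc

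The CCAAT box was more frequent in the promoters of both enzyme groups than in promoters at large. It was found in 15 of 20 promoters of sterol enzymes (75%) and 7 of 12 of fatty acid enzymes (58.3%), beside 34.6% of all 35116 promoters and 35.4% of those of measured genes. The NSDHL stretch holds 5 matches, a pair of them overlapping on opposite strands, that of MSMO1 holds 4, that of SCD holds 2 and that of SREBF1 holds 0. Genes that were higher and genes that were lower both carried it. The sterol regulatory element TCACCCCAC was found in 1 of the 41 promoters, that of SREBF2, at positions -133 to -125 from the start, beside 0.43% of all promoters. The same was true of TCACNCCAC, where N is any base, beside 1.13%. The looser TCACNCNAC, which contains both, was found in 5 of 41 promoters (12.2%), those of FDPS, HSD17B7, FADS2, ACSS2 and SREBF2, beside 2.55%. The E-box CACGTG was found in 6 of 41 (14.6%), beside 7.26% of all promoters and 9.77% of those of measured genes. The GC box GGGCGG was found in 37 of 41 (90.2%), beside 45% and 67.8%. Promoters of the same gene can overlap, so a match can be counted more than once. By gene, the E-box was found in 5 of 30 (16.7%), beside 13.4% of measured genes. The CCAAT box was found in 21 of the 30 (70%), beside 44.2%, and the GC box in 29 (96.7%), beside 79.5%. A match is a run of letters and not a measured site.

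Other genes of lipid metabolism were taken from 8 lists of 90 genes, of which 75 were measured. Of the 75, 29 were higher and 45 lower, with 3 past 1.5-fold upward and 9 past it downward, beside 54.8%, 44.1%, 5.19% and 5.41% of all measured genes, and the median was -0.09. The list of LXRs and sterol efflux differed most, with a median of -0.56 over 4 measured genes, or -0.85 over the 2 genes left at a minimum level of 7. ABCG1, a sterol exporter that LXRs switch on, stood at 7.65 in siCon and 6.46 in siKMO, a 2.27-fold lower level. Its other 2 measured probe sets had siKMO levels under 6 and were lower by at least 0.94 and at least 0.505 with those levels taken as 6. NR1H3, which encodes LXR-alpha, stood at 7.10 and 6.51. MYLIP, an LXR-induced ligase that degrades lipoprotein receptors, stood at 8.46 and 7.94, lower with all 4 of its measured probe sets. SMPDL3A had the same value of 6.34 on both arrays. Of the other genes that LXRs switch on, ABCA1 differed by 0.02 and SREBF1 by -0.52.

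Of 10 measured genes of the isoprenoid branch, which makes ubiquinone side chains, dolichol and protein anchors, the median was 0.04, or -0.01 with centred differences, so its sign was not settled. PDSS1, a subunit of the enzyme that builds the ubiquinone tail, stood at 5.92 and 6.97 and was higher by at least 0.97 with its siCon level taken as 6. DHDDS, a subunit of the dolichol-making enzyme, stood at 6.07 and 6.90, a 1.77-fold higher level, and with its other measured probe set it was higher by at least 0.35. GGPS1, which makes geranylgeranyl diphosphate, differed by -0.32. Among 7 genes that assist sterol synthesis, TMEM97, a sterol-responsive membrane protein that binds NPC1, stood at 8.51 and 9.37, with 0.31 to 0.86 over 4 probe sets. LBR, a nuclear envelope protein with the same C-14 reductase activity as TM7SF2, differed by -0.49, and CYB5R3, which supplies electrons to desaturases and sterol oxidases, by 0.39.

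**Figure D4:**
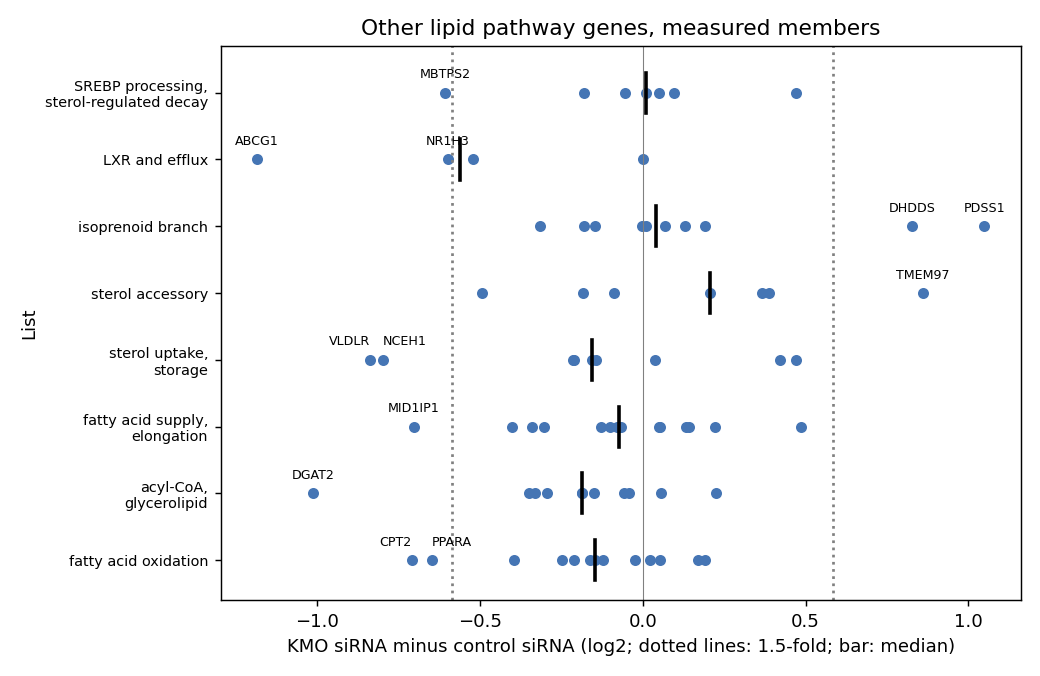
Difference (KMO siRNA minus control siRNA, log2, x axis) of the measured genes of 8 further lipid lists, 1 point for each gene, with a bar at the list's median and dotted lines at 1.5-fold; genes at or past 1.5-fold are named. ABCG1 and DGAT2 lie beyond -1, and PDSS1, drawn at its deposited difference of 1.05, TMEM97 and DHDDS are the 3 genes past 1.5-fold on the higher side.

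Genes of sterol uptake and storage had a median of -0.16 over 9 measured. VLDLR, a lipoprotein receptor, stood at 7.93 and 7.09, and NCEH1, which frees cholesterol from its stored esters, at 9.32 and 8.52, lower by 1.79- and 1.74-fold. SOAT1, which makes those esters, stood at 9.25 and 9.72, with 0.39 to 0.84 over 3 probe sets. In SREBP processing the median was 0.01 over 7 genes, or -0.05 with centred differences, so its sign was not settled. MBTPS2, the second protease that releases SREBPs, stood at 9.92 and 9.31, a 1.52-fold lower level, the first protease MBTPS1 differed by -0.18, and PAQR3, which anchors the SCAP complex at the Golgi, by 0.47.

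Genes that supply and extend fatty acids had a median of -0.07 over 14 measured. MID1IP1, an activator of acetyl-CoA carboxylase, stood at 6.80 and 6.10, a 1.63-fold lower level, the NADPH source ME1 differed by -0.40, and the elongase ELOVL7 by 0.49. At a minimum mean level of 7 the median of this list was 0.05 over 10 genes, so its sign was not settled. Of 11 measured genes of acyl-CoA and glycerolipid synthesis 9 were lower, beside 44.1% of all measured genes, with a median of -0.19. DGAT2, which completes triglycerides, stood at 7.97 and 6.96, a 2.02-fold lower level (-1.11 with its other measured probe set), LPIN2, a phosphatidate phosphatase, differed by -0.35, and ACSL1, which activates fatty acids, by -0.33. Transcripts of 9 of 13 measured fatty acid oxidation genes were lower, beside the same 44.1%, with a median of -0.15, or -0.07 over 10 genes when every probe set was averaged. CPT2, an acyltransferase of the carnitine shuttle, stood at 7.47 and 6.76 (-0.99 with its other measured probe set), PPARA, a receptor that switches on oxidation genes, at 7.14 and 6.49, and CPT1A, the gate of mitochondrial entry, at 8.58 and 8.18.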

How the data were processed

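The 2 columns hold log2 expression levels that the authors made by RMA, per the labels of the arrays, with Affymetrix Expression Console, per the submitters' processing notes. RMA corrects background, equalises the distributions of arrays and summarises probes, so a shift shared by all transcripts cannot be seen and weak levels are compressed. The medians of all probe sets were 4.44 (siCon) and 4.43 (siKMO), and no value has a detection call or a count behind it. The software version and the set of arrays normalised together are, in the sources used here, not given.

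Probe sets with a single gene in the platform's annotation (41097, of which 41043 were matched by gene identifier) were named by the symbols of a RefSeq table of GRCh38.p14; 1801 with several genes named none. Differences, medians and counts at 1.5- and 2-fold were computed in Python 3.11.15 with pandas 2.3.3, and the code was tested on simulated data. A level under 6 was taken as 6 where a difference is called "at least". With 1 array a group there is no test and no p-value. The members and lists were chosen with earlier results of these data known. The text names all members, and of each other list the 3 largest differences and any past 1.5-fold. SMPDL3A was named after its values were seen. The alternatives were the mean of all or of the measured probe sets of a gene, omission of probe sets ending in _x_at or _s_at, no minimum or a minimum of 7, levels floored at 6, and differences centred by lowess (statsmodels 0.14.6, span 0.3) on mean level.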

Additional observations from a re-analysis of the deposited data

How the results depend on the processing

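A value is said to move where it changed by more than 0.104, the median gap between a gene's 2 strongest probe sets, and a count where it changed by over 1.5 times. The medians of the sterol enzymes (0.12 to 0.17), the fatty acid enzymes (-0.17 to -0.07), their gap and the further lipid genes (-0.14 to -0.06) kept their direction and moved under none of the 7 alternatives. Averaging every probe set gave the regulators a median of -0.14 and the transport genes one of -0.0668, the latter over 2 genes without NPC1. With differences centred by lowess, the median of all 29 members was -0.0166 in place of 0.0152, and 1 member (INSIG2) was at least 1.5-fold lower; with no minimum level it was also 1 (TM7SF2). When _x_at and _s_at probe sets were omitted fewer genes were measured: 7 of 8 sterol enzymes were higher, 2 of 2 fatty acid enzymes lower, and 1 gene had several measured probe sets, in the same direction. Shares over all measured genes are given for the main setting alone, so counts under the alternatives have no such share beside them. Of 189 single-gene values under the alternatives, 9 moved: IDI1 under both ways of averaging, and ACACA, EBP, FADS2, FASN, SC5D, SREBF1 (-0.40) and SREBF2 when every probe set was averaged. Of the 189, 5 changed sign, those of ABCA1, ACACA, FASN, MVK and PMVK, whose differences in the main setting were at most 0.10 in size. With the sign changed, ACACA stood at 0.22 and FASN at 0.17, and ABCA1, MVK and PMVK at -0.02, -0.0058 and -0.0008. No paired analysis was possible because each condition has 1 array. The single array for each condition limits the precision.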
